A study of Mus musculus with 48 samples.

Results

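Oxidative phosphorylation makes most of a cell's ATP. Complexes I to IV of the inner mitochondrial membrane pass electrons from NADH and succinate to oxygen, with cytochrome c as the carrier between complexes III and IV, and complex V, the ATP synthase, uses the proton gradient that results. Neurons depend on it heavily, and most subunits are made from nuclear genes while a few catalytic ones are made in the mitochondrion. The nuclear genes were followed here in mouse brain on the GeoMx spatial platform, where light frees barcoded probe tags from a selected area of a section so that they can be sequenced and counted. Rows whose symbols start with Nduf, Uqcr or Atp5, those of the Cox4 to Cox8 families, Sdha, Sdhb, Sdhc, Sdhd, Cyc1 and Cycs were taken, which gave 97 of 19963 rows. They are 46 genes of complex I, 4 of complex II, 9 of complex III, cytochrome c itself, 20 of complex IV and 17 of complex V. Of the 13 genes of the mitochondrial genome, 0 had a probe.

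The groups, named by column headings, were 5xFAD-LynKO with 5 columns, 5xFAD with 5 columns and WT with 6 columns. 5xFAD is a transgenic line that deposits amyloid, and 5xFAD-LynKO is that line crossed with a knockout of Lyn, a Src-family kinase of myeloid cells, so both of these groups carry the 5xFAD transgenes. The labels state neither age nor sex. A group named APP and the GFAP-positive astrocyte segments were not analysed here. A column is 1 region of a brain section, taken as a segment positive for the microglial protein TMEM119 because the series describes its analysis as microglial. The series describes 6 regions per slice and ties no region to an animal, so regions may share an animal and every p-value is then too small.

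Genes of other cell types than microglia were detected in the segments. The Tmem119 probe lay at 0.788 times the negative control probe in 5xFAD-LynKO, 0.685 in 5xFAD and 0.969 in WT, while 12 of 13 pan-neuronal markers were above background. The Lyn probe averaged 1.21 times that control in 5xFAD-LynKO, 1.15 times in 5xFAD and 1.3 times in WT, too near background to check the knockout, and its place relative to the deleted part is unknown. WT columns 1 and 3 stood apart in the mean log2 level of 14 microglial markers, at 1.42 and 1.28, where the other WT columns had 0.40 to 0.50. Implied probe counts were 3207095 to 5793534 per column in 5xFAD-LynKO, 3205406 to 4148785 in 5xFAD and 1194249 to 2548601 in WT. Below, a level is a column's signal divided by that column's median over all targets. A difference is on the log2 scale after adding 1 to the signal, and an interval is its 95% interval from limma. A target was above background where its mean ratio to the negative probe over all columns exceeded 1.5, which 42 of the 97 members and 2292 of all 19960 targets tested did. Levels of different genes rest on different probes and are not compared as abundances. No source at hand says whether a probe also reads a paralogue or pseudogene.

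The strongest signals over the negative probe were those of complexes IV and V. Atp5b, the catalytic beta subunit of ATP synthase, averaged 3.77 times the negative probe over all columns. Cox4i1, a core-stabilising subunit of cytochrome c oxidase, averaged 3.72 times, and Cox5b, another subunit gene of that complex, 3.11 times. The highest in complex III was the hinge protein gene Uqcrh at 2.63 times, in complex II the flavoprotein gene Sdha at 2.05 times and in complex I the accessory subunit gene Ndufb11 at 2.03 times. By complex, 14 of 17 members of complex V were above background, 11 of 20 of complex IV, 3 of 9 of complex III, 2 of 4 of complex II and 11 of 46 of complex I, together with cytochrome c. The 8 complex I assembly factors and the 8 tissue-restricted complex IV isoforms were all below this limit.

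Nuclear respiratory factor 1, GABP and YY1 are transcription factors known to drive many of these genes, so their cores were looked for in the promoters. RefSeq windows on GRCm38.p6, 300 bases each from 250 before to 50 after the gene start, were found for 78 members. The NRF1 core GCATGCGC, or GCGCATGC on the other strand, stood in 13 of 78 windows, or 16.7%, against 2.81% of 27025 windows of all genes and 5.54% of 1824 windows of genes above background. The YY1 core AAGATGGCG, or CGCCATCTT, stood in 7, or 8.97%, against 1.5% of all and 2.52% of those above background. The GABP core CCGGAAGT, or ACTTCCGG, stood in 5, or 6.41%, against 4.00% and 7.29%. Because the 2 orientations of the NRF1 core overlap, GCGCATGCGC counts as both. The windows below show the NRF1 core in capitals, read along the gene, for the electron carrier and for one gene each of complexes I, IV and V whose window lies upstream of the start, together with Atp5l, which was lower in 5xFAD. Cycs lies at chr6:50566597-50566654 on the minus strand, Ndufa11 at chr17:56717677-56717736 on the plus strand, Cox6a1 at chr5:115349086-115349145 on the minus strand, Atp5g2 at chr15:102671055-102671114 on the minus strand and Atp5l at chr9:44920950-44920992 on the minus strand.
Cycs: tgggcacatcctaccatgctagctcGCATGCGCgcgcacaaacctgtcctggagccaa
Ndufa11: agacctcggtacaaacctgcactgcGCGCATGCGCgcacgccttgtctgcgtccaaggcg
Cox6a1: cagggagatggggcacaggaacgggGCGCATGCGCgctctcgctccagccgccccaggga
Atp5g2: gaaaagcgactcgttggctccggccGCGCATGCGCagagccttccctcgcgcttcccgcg
Atp5l: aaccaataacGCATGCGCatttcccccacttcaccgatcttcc
A match is a run of letters and not a measured site. Members with the NRF1 core had a median difference of -0.07 between 5xFAD and WT, and members with a window that lacks it a median of -0.09.

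The comparison of 5xFAD with WT asked how segments of amyloid-bearing brain differ from those of wild type. Subunits of complexes III, IV and V were lower relative to the column median in 5xFAD, by 1.22-fold to 1.52-fold among the 10 that passed the test. Of the 46 genes of complex I, of which 11 were above background, 0 were called lower. The 10 called lower were Uqcrfs1, Uqcrb and Uqcrq of complex III, Cox6c, Cox5b and Cox8a of complex IV, and Atp5a1, Atp5pb, Atp5j2 and Atp5l of complex V. Called higher were 3, the complex I assembly factors Ndufaf2 and Ndufaf6 and the muscle isoform Cox6a2, all of which lay within 0.919 to 1.0 times the negative probe on average. Of all 19960 targets, 8.23% were called lower and 5.99% higher, so the members' 10 and 3 of 97 are near the background shares. Above background, 15.1% of all targets were called lower and 0.349% higher, and 7 and 0 of the 42 members. That limit averages over all columns, so a target can pass it through the group where it is high, and these counts only describe. Atp5j2, among the 7, stood at 1.41 times the negative probe in 5xFAD and 1.97 times in WT. An unadjusted p under 0.05 was reached by 36 members.

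These calls describe signal relative to the median target of a column and depend on that choice. Of the 97 members, 9 were called lower and 6 higher when columns were scaled on the 75th percentile, against 1198 and 1797 of all 19960 targets. On the negative probe 19 and 0 were called, against 14.8% and 2.49% of all targets, and after quantile normalization 4 and 4, against 7.97% and 5.17%. As deposited, where the median over all targets was itself 0.88 log2 higher in 5xFAD, 0 members were called lower and 92 higher, with 99.3% of all targets called higher. With the mean level of all other targets above background as a covariate, an adjustment chosen after seeing the data, 0 of the 13 calls remained, and 98 of 19960 targets were called lower and 35 higher. That covariate itself was lower in 5xFAD, at 0.60 to 0.87 log2 per column against 0.76 to 1.04 in WT, and the part it played was not tested. Against 13 calls with all columns, 2 were made without 5xFAD column 3, 3 without 5xFAD column 5, 5 without 5xFAD column 1 or 2, 7 without WT column 1 and 5 without WT column 2 or 3. The shares of all targets called on these omissions were not counted, so the falls may not be particular to the members.

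**Figure D1:**
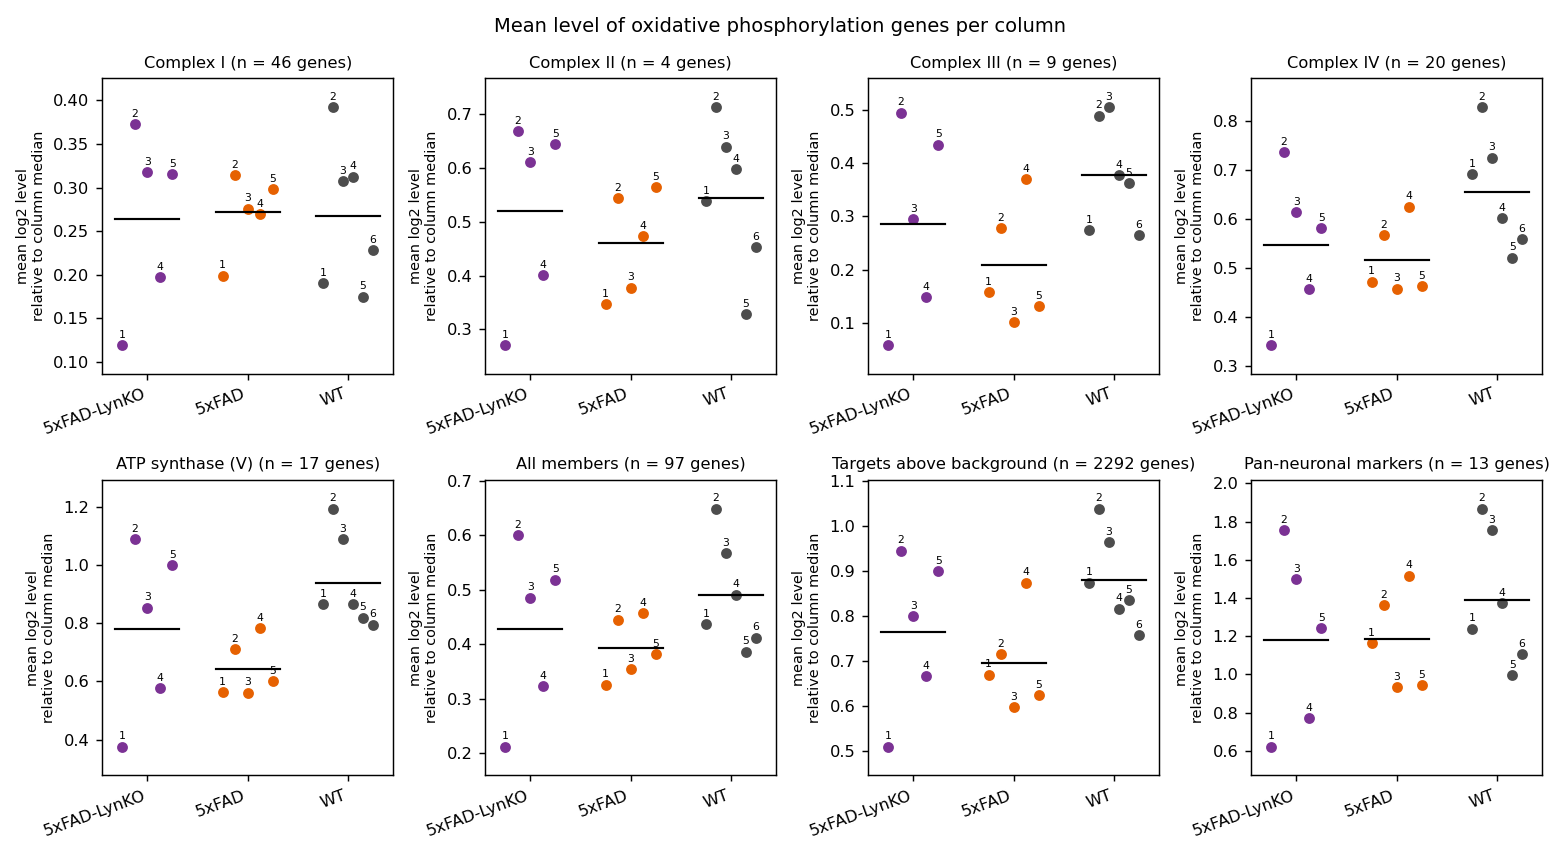
Mean log2 level of the members of each complex in each column, relative to the column median, with 5xFAD-LynKO, 5xFAD and WT from left to right, column numbers beside the points and the group mean as a bar. Complex V lies at 0.561 to 0.785 in 5xFAD and 0.796 to 1.19 in WT, which do not overlap but nearly touch. Complex I overlaps in all groups, and the lower right panels show that all targets above background and the pan-neuronal markers vary over the same columns.

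Column by column, the module followed the general level of well-detected targets. The 42 members above background averaged 0.46, 1.14, 0.94, 0.67 and 1.03 log2 in 5xFAD-LynKO columns 1 to 5 and 0.65, 0.80, 0.64, 0.92 and 0.70 in 5xFAD columns 1 to 5. In WT columns 1 to 6 they averaged 0.93, 1.23, 1.12, 0.94, 0.89 and 0.87. All 2292 targets above background averaged 0.51, 0.94, 0.80, 0.67 and 0.90 in the same 5xFAD-LynKO columns, 0.67, 0.71, 0.60, 0.87 and 0.62 in 5xFAD, and 0.87, 1.04, 0.96, 0.82, 0.83 and 0.76 in WT. In both measures the highest 5xFAD column was 4, the lowest 5xFAD-LynKO column was 1 and the highest WT column was 2. The 13 pan-neuronal markers averaged 0.62 to 1.76 in 5xFAD-LynKO, 0.93 to 1.52 in 5xFAD and 1.00 to 1.87 in WT, and 1 of them, the neuronal nuclear gene Rbfox3, was called lower in 5xFAD. With the pan-neuronal level as a covariate 10 members were called, 9 lower and 1 higher, against 6.97% and 4.27% of all targets. Fewer cells of a type and less RNA per cell cannot be told apart in such segments.

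The size of the difference went with signal. In bins chosen after seeing the data, the 27 members at up to 1.25 times the negative probe had a median difference of 0.13, the 28 between 1.25 and 1.5 times one of -0.06, the 28 between 1.5 and 2 times one of -0.22 and the 14 above 2 times one of -0.39. All targets in the same bins had medians of 0.05, -0.06, -0.13 and -0.27. Above 2 times the negative probe, 4 of 14 members, or 28.6%, were called lower, and 82 of 576 targets, or 14.2%. Over all 97 members the median was -0.09 and over all targets 0.01. Probe background was left in the signal, so the change of a weak probe may be misstated, and the part of background in this link was not tested. Signal over background also differed by genotype, with 298 to 793 targets per column above 2 times the negative probe in 5xFAD and 612 to 1670 in WT. With the negative probe subtracted, the median was -0.48 for the members and -0.30 for all targets. The median of the 8 tissue-restricted complex IV isoforms then moved from 0.18 to 0.04, and that of the 11 ubiquitous complex IV subunits from -0.33 to -0.79.

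**Figure D2:**
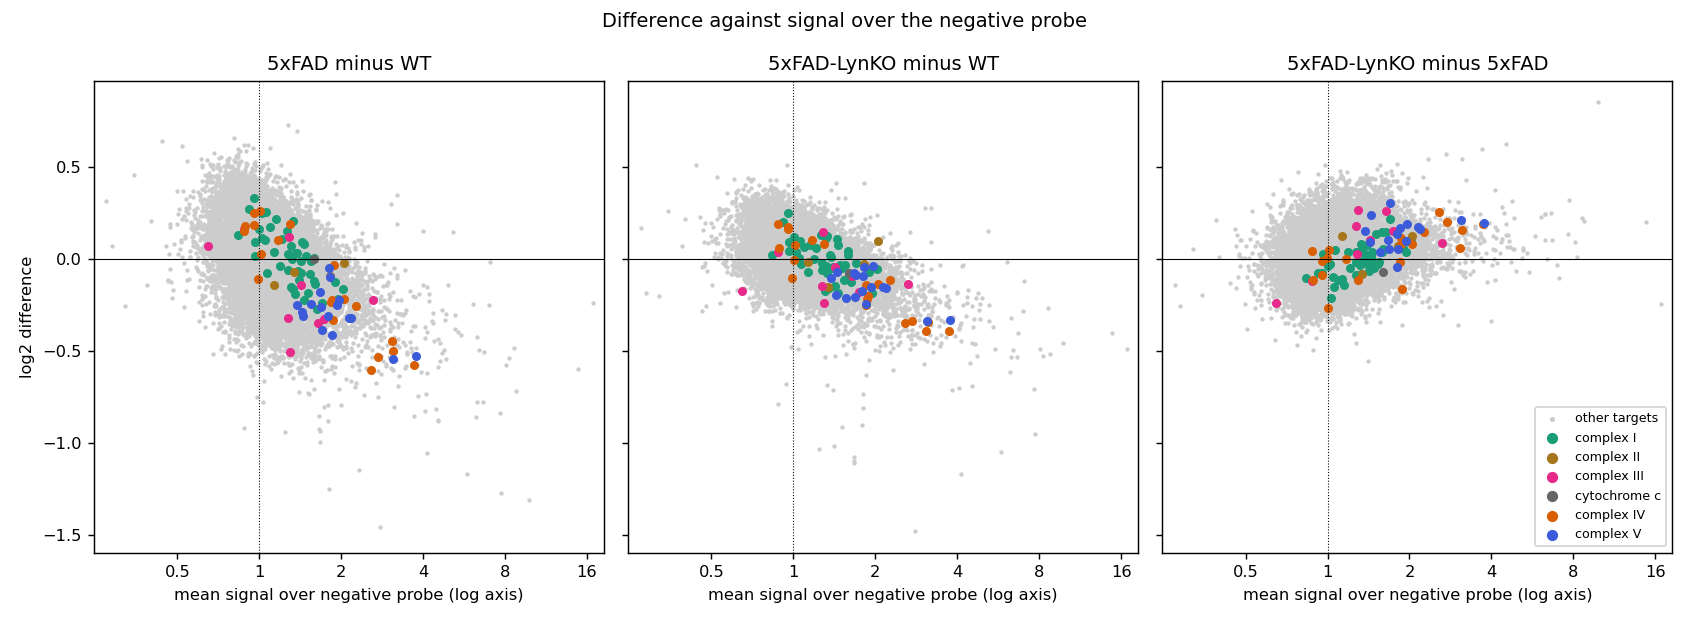
Log2 difference of each target against its mean signal over the negative probe (log axis), for 5xFAD minus WT, 5xFAD-LynKO minus WT and 5xFAD-LynKO minus 5xFAD from left to right, with members coloured by complex and the other targets in grey. Members of complexes IV and V with the strongest signal lie near -0.5 in 5xFAD minus WT, most members near the negative probe lie above 0, and the grey cloud tilts the same way.

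Complex I, NADH dehydrogenase, takes electrons from NADH, and its genes had a median difference of 0.01 between 5xFAD and WT. Of 46, 0 were called lower and 2 higher, with 22 below 0. Most of the probes were weak, with 11 of 46 above background. Between 1.5 and 2 times the negative probe, 9 of 10 complex I genes lay below 0, with a median of -0.13. All targets in that bin also had a median of -0.13. The bin's median was -0.34 for 2 genes of complex III, -0.23 for 4 of complex IV and -0.25 for 10 of complex V. The 7 nuclear core subunits of complex I carry the flavin and iron-sulfur clusters, and 0 of 7 passed, with a median of 0.07. Ndufs1, the largest iron-sulfur subunit, differed by -0.04 and Ndufs8, another iron-sulfur subunit, by 0.21, with Ndufs3 at 0.09, Ndufs7 at 0.03, Ndufv1 at 0.11 and Ndufv2 at 0.07. Ndufv1 binds NADH and the flavin, and its probe lay at 1.02 times the negative probe.

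The 30 accessory subunits surround the core. Of these, 0 passed, 20 lay below 0 and the median was -0.07. Ndufb11, the accessory subunit with the strongest signal, had levels of 1.63, 2.11, 1.79, 1.75 and 2.23 in 5xFAD-LynKO, 1.62, 1.66, 1.49, 2.20 and 1.86 in 5xFAD and 1.83, 1.95 and 2.20 (lowest, median and highest) in WT. Column 4 of 5xFAD lay marginally above every WT column and columns 1, 2 and 3 below, and the difference was -0.17 with an interval of -0.39 to 0.06 (limma adjusted p of 0.314). The lowest difference of an accessory subunit was -0.28, for Ndufa3, and its limma adjusted p was 0.0553.

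The 8 assembly factors of complex I, which help build it but are not in the finished complex, had differences of 0.10 to 0.33, all above 0. All 8 also lay above 0 on the 75th percentile, on the negative probe and after quantile normalization. With the negative probe subtracted 6 lay above 0, 1 below and 1 at 0. Ndufaf2 had levels of 0.950, 0.826, 0.866, 0.866 and 0.904 in 5xFAD-LynKO, 0.961, 1.01, 0.954, 0.875 and 0.852 in 5xFAD and 0.649, 0.811 and 0.840 (lowest, median and highest) in WT. All 5xFAD columns lay above all WT columns, with a difference of 0.27 ± 0.08 (SE, limma adjusted p = 0.0287). Ndufaf6 differed by 0.33 ± 0.11 (SE, adjusted p = 0.0480) with overlapping columns. Of 16 single-column omissions, 11 kept the call of Ndufaf2 and 6 that of Ndufaf6, with adjusted p of up to 0.0877 and 0.159. All 8 probes lay at 0.835 to 1.09 times the negative probe, a level at which the signal is mostly probe background, and neither call was made on the negative probe scale or with that probe subtracted. The negative probe itself stood at 0.933 to 0.957 of the column median in 5xFAD and 0.859 to 0.918 in WT. The row named Ndufb11b, which has no annotation here, differed by 0.04 and did not pass.

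Complex II, succinate dehydrogenase, joins the citric acid cycle to the chain and is encoded wholly in the nucleus. Of its 4 genes, 0 passed, and all 4 lay slightly below 0, of which 3 turned above 0 after quantile normalization. Sdha had levels of 1.43, 2.47, 2.12, 1.67 and 2.51 in 5xFAD-LynKO, 1.79, 1.96, 1.72, 1.88 and 1.84 in 5xFAD and 1.4, 1.82 and 2.49 (lowest, median and highest) in WT. The 5xFAD columns sat inside the WT range, and the difference was -0.02 with an interval of -0.32 to 0.27 (limma adjusted p of 0.930). The iron-sulfur subunit gene Sdhb differed by -0.09 and the membrane anchor genes Sdhc and Sdhd by -0.14 and -0.07.

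**Figure D3:**
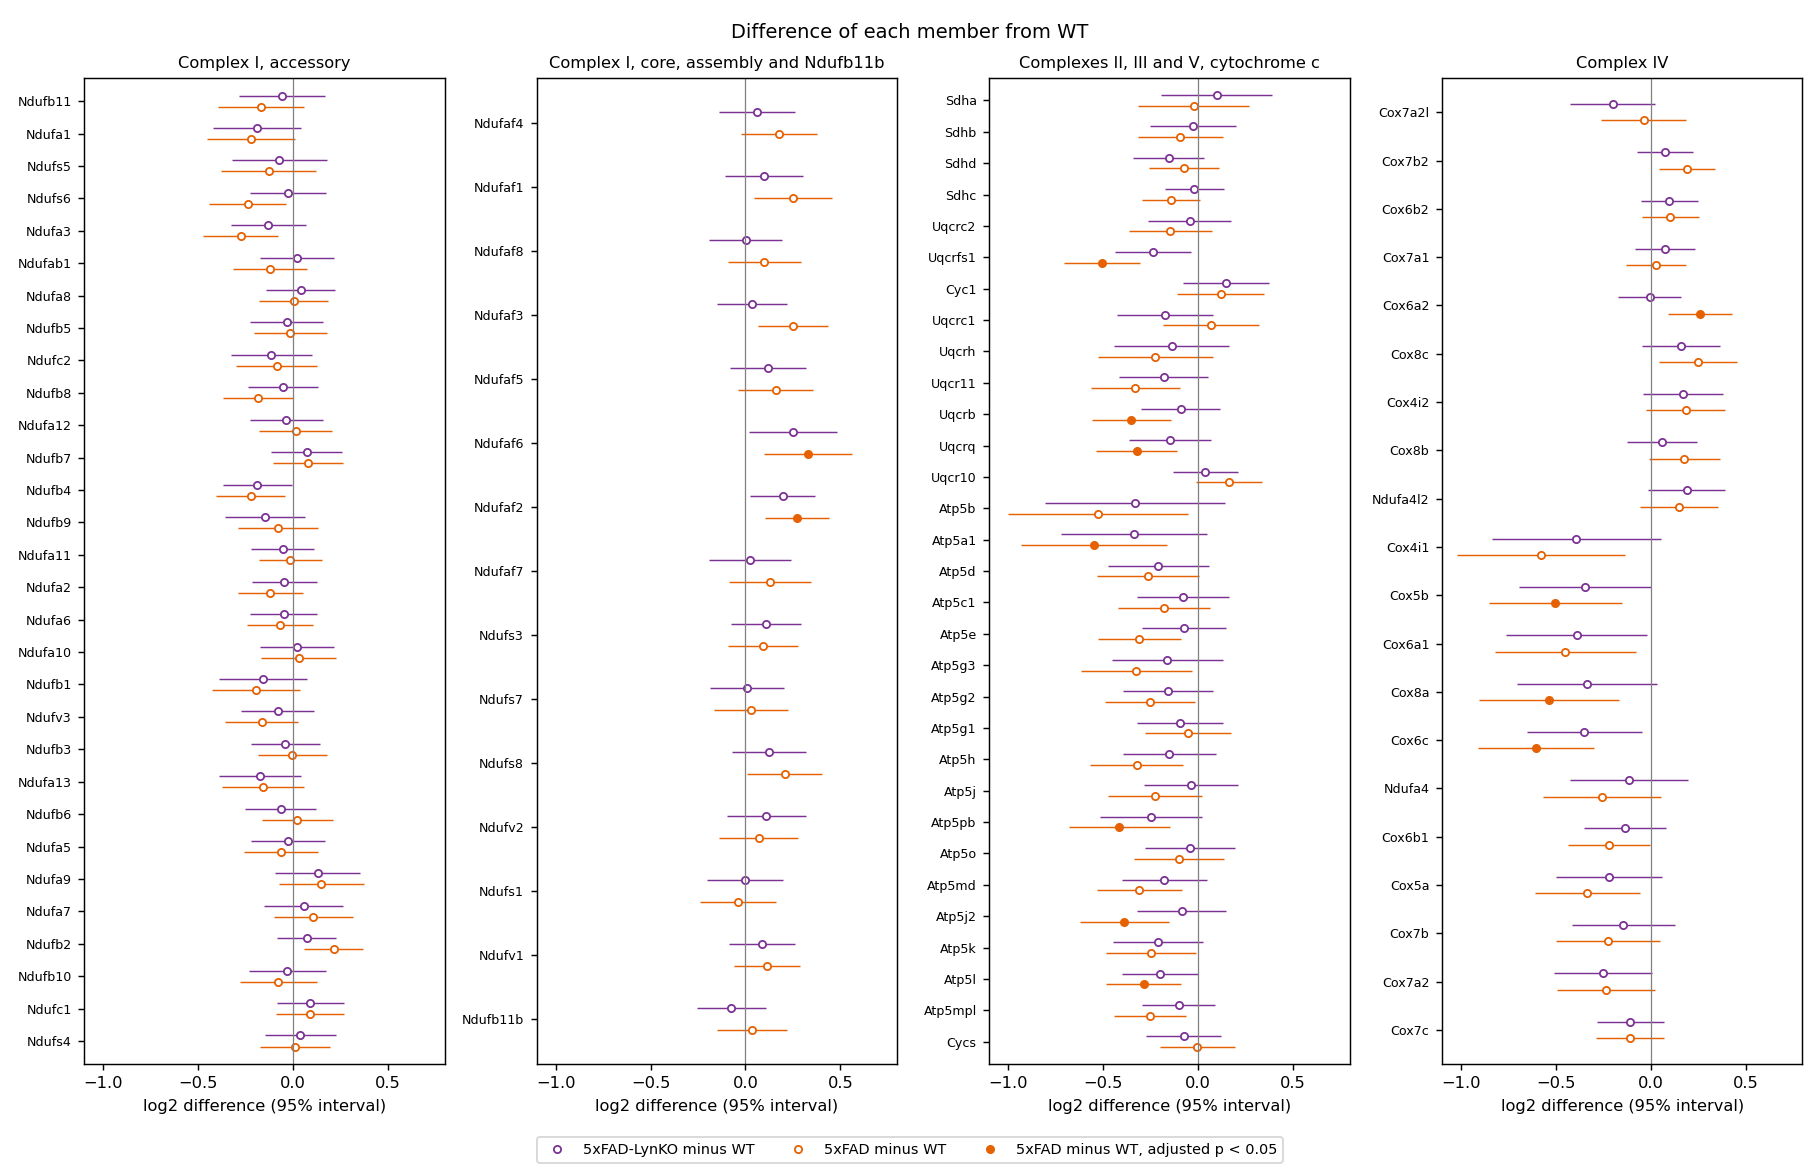
Log2 difference from WT of 96 of the 97 members with its 95% interval, for 5xFAD-LynKO minus WT in purple and 5xFAD minus WT in orange, grouped by complex and sorted within a role by signal. Filled points passed at an adjusted p under 0.05, which 13 did in 5xFAD minus WT and 0 in 5xFAD-LynKO minus WT, and most purple points lie nearer 0 than the orange ones for complexes III to V.

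Complex III, the cytochrome bc1 complex, passes electrons from ubiquinol to cytochrome c. Of its 9 genes, 3 were called lower and 0 higher, with a median of -0.22. That median was -0.07 after quantile normalization, 0.02 with other targets as a covariate and 0.65 as deposited. Uqcrfs1, the Rieske iron-sulfur protein that takes the first electron, had levels of 1.1, 1.42, 1.13, 0.973 and 1.41 in 5xFAD-LynKO and 0.987, 1.05, 0.876, 1.19 and 0.886 in 5xFAD. In WT its levels were 1.32, 1.39 and 1.56 (lowest, median and highest). All 5xFAD columns lay below all WT columns, which held for 2.89% of all targets, and the mean was 0.998 ± 0.13 in 5xFAD against 1.41 ± 0.082 in WT (SD, n = 5 and 6). That is 1.42-fold lower, a difference of -0.51 ± 0.10 (SE, limma adjusted p = 0.00244), the smallest adjusted p of the members. The probe was weak, at 1.05 times the negative probe in 5xFAD and 1.58 times in WT.

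Uqcrb, a small subunit near the quinone site, had levels of 1.26, 1.75, 1.55, 1.47 and 1.88 in 5xFAD-LynKO, 1.19, 1.45, 1.15, 1.57 and 1.24 in 5xFAD and 1.55, 1.65 and 1.9 (lowest, median and highest) in WT. Column 4 of 5xFAD overlapped WT, and the difference was -0.35 ± 0.10 (SE, limma adjusted p = 0.0227). Uqcrq, another small subunit, had levels of 0.996, 1.28, 1.14, 1.05 and 1.48 in 5xFAD-LynKO, 1.01, 1.04, 0.915, 1.26 and 1.01 in 5xFAD and 1.11, 1.29 and 1.54 in WT. Column 4 of 5xFAD again overlapped WT, with a difference of -0.32 (adjusted p = 0.0384). Of 16 single-column omissions, 13 kept the call of Uqcrb and 9 that of Uqcrq, with adjusted p of up to 0.0841 and 0.123. Uqcr11, another small subunit, differed by -0.33 and did not pass (adjusted p of 0.0516). Cytochrome c1, encoded by Cyc1, differed by 0.12 (interval -0.11 to 0.35), the core proteins Uqcrc2 and Uqcrc1 by -0.15 and 0.07, and Uqcrh by -0.22, and 0 of these passed. The Uqcrc1 probe lay at 0.647 times the negative probe, below background.

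Cytochrome c, the mobile carrier encoded by Cycs, had levels of 1.13, 1.67, 1.46, 1.35 and 1.55 in 5xFAD-LynKO, 1.53, 1.48, 1.44, 1.72 and 1.33 in 5xFAD and 1.38, 1.51 and 1.65 (lowest, median and highest) in WT. The columns overlapped, and the difference was -0.004 with an interval of -0.20 to 0.19 (limma adjusted p of 0.982). That interval lies above the differences of Cox6c and Uqcrfs1 given elsewhere, though the genes were not tested against each other.

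Complex IV, cytochrome c oxidase, reduces oxygen, and its nuclear genes split by isoform class. The 11 ubiquitous subunits all lay below 0 in 5xFAD, also on the 75th percentile, on the negative probe and after quantile normalization though not as deposited, with a median of -0.33 and 3 called lower. With other targets as a covariate 8 of the 11 lay below 0 and the median was -0.04. The 8 tissue-restricted isoforms all lay above 0, with a median of 0.18 and 1 called higher. On the negative probe and after quantile normalization 7 of these 8 lay above 0, and with the negative probe subtracted 4 of 8. Their probes stood at 0.877 to 1.3 times the negative probe, within the range where targets in general had differences near or above 0; the probe of the ubiquitous Cox7c lay at 0.992 times.

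Cox6c, a small transmembrane subunit, had levels of 1.71, 3.12, 2.49, 1.9 and 2.49 in 5xFAD-LynKO and 1.92, 2.08, 1.56, 2.51 and 1.67 in 5xFAD. In WT its levels were 2.59, 3.01 and 3.21 (lowest, median and highest). All 5xFAD columns lay below all WT columns, while 5xFAD-LynKO columns spread over both. Cox6c averaged 1.95 ± 0.37 in 5xFAD against 2.94 ± 0.28 in WT (SD, n = 5 and 6), 1.52-fold lower, a difference of -0.60 ± 0.15 (SE, limma adjusted p = 0.00912). With the negative probe subtracted from each column the means were 1.0 in 5xFAD and 2.05 in WT. Cox6c and Uqcrfs1 kept their calls under all 16 single-column omissions. Cox6c also kept its call in every planned setting in which single genes were followed, which leaves out the values as deposited. Uqcrfs1 kept its call in those in which it was fitted. It was below the mean background limit, so the setting restricted to targets above that limit did not include it. It passed the 5-column rule only through WT and 5xFAD-LynKO columns, so its call in that setting is no support. Both genes lost their calls with the level of other targets as a covariate, at differences of -0.28 and -0.30 and limma adjusted p of 0.175 and 0.0896.

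Cox5b, the zinc-binding subunit, had levels of 1.79, 3.69, 2.94, 2.32 and 3.27 in 5xFAD-LynKO, 2.05, 2.54, 2.39, 2.91 and 2.37 in 5xFAD and 2.96, 3.38 and 4.09 (lowest, median and highest) in WT. The 5xFAD and WT columns did not overlap, and the difference was -0.50 ± 0.17 (SE, limma adjusted p = 0.0471). Cox8a, the smallest subunit, had levels of 1.76, 3.35, 2.98, 2.05 and 2.29 in 5xFAD-LynKO, 2.12, 2.23, 1.75, 2.90 and 1.72 in 5xFAD and 2.35, 3.03 and 4.29 in WT. Here 5xFAD column 4 lay inside the WT range, and the difference was -0.54 ± 0.18 (adjusted p = 0.0458). Both calls sat close to the threshold and ended on omission of any of 5xFAD columns 1, 2, 3 and 5 or WT columns 1, 2 and 3, and that of Cox5b also without WT column 5 or 6 or 5xFAD-LynKO column 3 or 4, with adjusted p of up to 0.126 for Cox5b and 0.136 for Cox8a.

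Several differences of like size did not pass. Cox4i1 had levels of 2.06, 4.87, 3.66, 2.63 and 3.60 in 5xFAD-LynKO, 2.75, 2.99, 2.24, 3.93 and 2.53 in 5xFAD and 3.53, 3.99 and 5.70 (lowest, median and highest) in WT. All 5xFAD columns but column 4 lay below WT, and the difference was -0.58 (interval -1.02 to -0.13, limma adjusted p of 0.0708). Cox6a1, the ubiquitous liver-type isoform, differed by -0.45 (adjusted p of 0.0913) and Cox5a by -0.33 (adjusted p of 0.0951). Cox6b1, Cox7a2 and Cox7b differed by -0.22, -0.23 and -0.23, and 0 of the 3 passed.

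**Figure D4:**
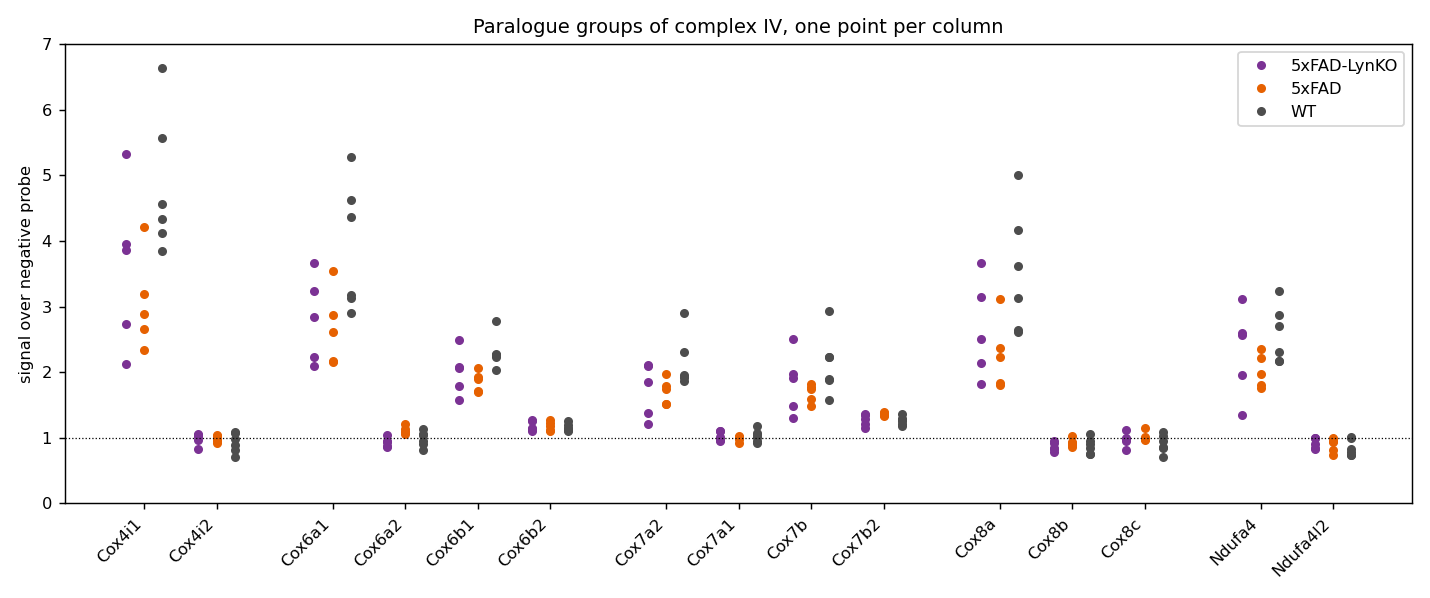
Signal over the negative probe (dotted line at 1) of paralogue groups of complex IV in each column, with 5xFAD-LynKO, 5xFAD and WT from left to right within a gene. The ubiquitous members Cox4i1, Cox6a1, Cox6b1, Cox7a2, Cox7b, Cox8a and Ndufa4 stand above the line in all columns, and their tissue-restricted paralogues lie close to it in every genotype.

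Cox6a2, the heart and skeletal muscle isoform, had levels of 1.0, 0.868, 0.888, 0.833 and 0.794 in 5xFAD-LynKO, 1.01, 1.13, 1.08, 1.02 and 1.03 in 5xFAD and 0.753, 0.886 and 1.01 (lowest, median and highest) in WT. All 5xFAD columns but column 1 lay above WT, with a difference of 0.26 ± 0.08 (SE, limma adjusted p = 0.0329), at 1.11 times the negative probe in 5xFAD and 0.987 times in WT. The call was kept in 10 of 16 single-column omissions, with adjusted p of up to 0.0941. Cox7b2, a testis isoform, had levels of 1.12, 1.23, 1.14, 1.24 and 1.25 in 5xFAD-LynKO, 1.33, 1.27, 1.28, 1.27 and 1.31 in 5xFAD and 1.06, 1.13 and 1.23 in WT. Its 5xFAD columns all lay above WT, which held for 2.15% of all targets, among them Ndufaf2 and Ndufb2 of the members, and its difference of 0.19 did not pass (adjusted p of 0.0727). Cox4i2, the lung isoform, differed by 0.18, Cox7a1, the muscle isoform, by 0.03, Cox8b by 0.18, Cox8c by 0.25 and Cox6b2 by 0.10, and 0 of these passed.

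Complex V is the ATP synthase. All 17 of its genes lay below 0 in 5xFAD, with a median of -0.29, 4 called lower and 0 higher. On the 75th percentile 16 of 17 lay below 0, on the negative probe 17, after quantile normalization 15, with other targets as a covariate 12 and as deposited 0. Atp5a1, the alpha subunit of the F1 head, had levels of 1.65, 3.72, 3.02, 2.38 and 3.48 in 5xFAD-LynKO and 2.10, 2.77, 1.99, 2.89 and 2.22 in 5xFAD. In WT its levels were 3.05, 3.20 and 4.68 (lowest, median and highest). The 5xFAD columns all lay below WT, with means of 2.39 ± 0.41 in 5xFAD and 3.52 ± 0.66 in WT (SD, n = 5 and 6), 1.46-fold lower and a difference of -0.55 ± 0.19 (SE, limma adjusted p = 0.0494). The call was at the edge of the threshold, and 6 of 16 single-column omissions kept it, with adjusted p of up to 0.140.

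Atp5b, the beta subunit that pairs with it in the head, had levels of 1.91, 5.11, 4.29, 2.51 and 3.88 in 5xFAD-LynKO, 2.55, 3.29, 2.41, 3.85 and 2.66 in 5xFAD and 3.29, 4.04 and 5.82 (lowest, median and highest) in WT. Column 4 of 5xFAD overlapped WT, and the difference was -0.53 (interval -1.0 to -0.05, limma adjusted p of 0.122). The peripheral stalk holds the head still. Its subunit gene Atp5pb had levels of 1.16, 2.33, 1.81, 1.34 and 1.9 in 5xFAD-LynKO, 1.5, 1.53, 1.4, 1.63 and 1.34 in 5xFAD and 1.6, 1.98 and 2.28 in WT. Only the highest 5xFAD column reached WT, and the difference was -0.41 ± 0.13 (SE, adjusted p = 0.0338). The other stalk genes Atp5h, Atp5j and Atp5o differed by -0.32, -0.23 and -0.10, and 0 of the 3 passed.

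The small membrane subunits of complex V include those that shape dimers of the enzyme. Atp5j2, the f subunit, had levels of 1.31, 1.91, 1.61, 1.42 and 2.08 in 5xFAD-LynKO, 1.38, 1.32, 1.22, 1.58 and 1.18 in 5xFAD and 1.54, 1.73 and 2.05 (lowest, median and highest) in WT. One 5xFAD column, column 4, overlapped WT, and the difference was -0.39 ± 0.11 (SE, limma adjusted p = 0.0235). Atp5l, the g subunit, had levels of 1.11, 1.49, 1.32, 1.08 and 1.49 in 5xFAD-LynKO, 1.16, 1.36, 1.17, 1.19 and 1.17 in 5xFAD and 1.32, 1.45 and 1.68 in WT. Column 2 of 5xFAD alone reached the WT range, and the difference was -0.29 ± 0.10 (adjusted p = 0.0463). Single-column omissions kept the call in 12 of 16 for Atp5j2, 8 of 16 for Atp5l and 9 of 16 for Atp5pb, with adjusted p of up to 0.0790, 0.106 and 0.0955. The 3 genes Atp5g1, Atp5g2 and Atp5g3 encode the same c subunit of the rotor, and they differed by -0.05, -0.25 and -0.33, with 0 of 3 passing and the highest adjusted p, 0.779, for Atp5g1.

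**Figure D5:**
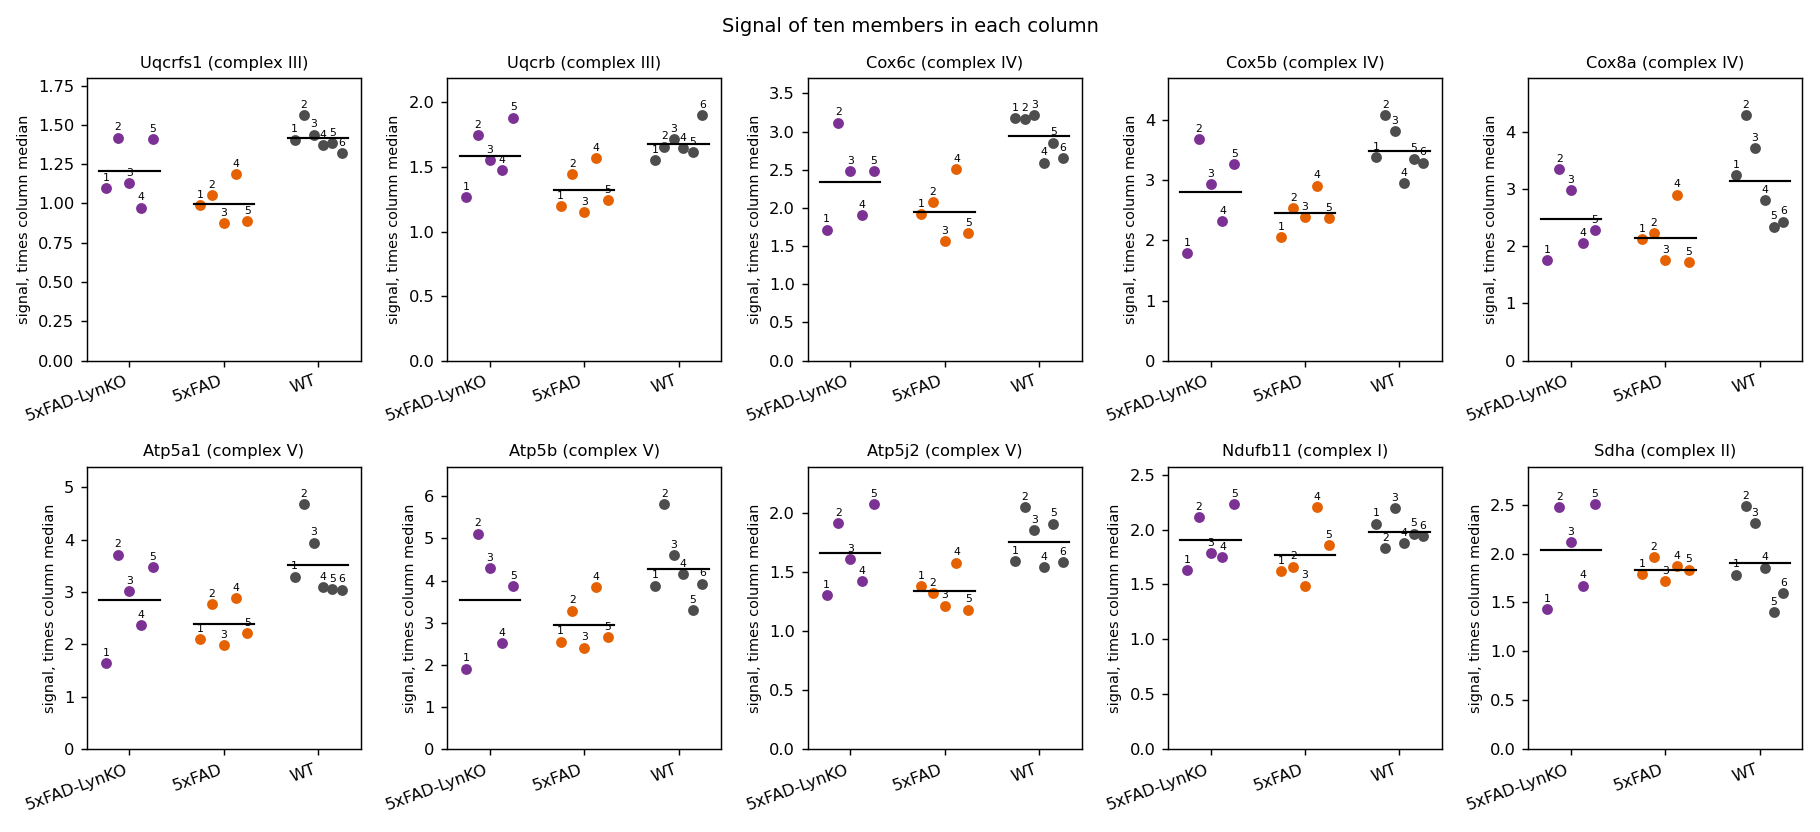
Signal of 10 members in each column as a multiple of the column median, with 5xFAD-LynKO, 5xFAD and WT from left to right, column numbers beside the points and the group mean as a bar. The 5xFAD columns of Uqcrfs1, Cox6c, Cox5b and Atp5a1 lie below all WT columns, those of Sdha lie within the WT range, those of Ndufb11 overlap it, and 5xFAD-LynKO columns span both groups in most genes. All 5xFAD columns lay below all WT columns for 4 of 97 members and 2.89% of all targets. Above background this held for 3 of 42 members and 6.2% of targets, a near share.

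The comparison of 5xFAD-LynKO with WT found 0 members called, with 7 at an unadjusted p under 0.05 and a smallest limma adjusted p of 0.522. Of all targets, 0.0551% were called lower and 0.00501% higher. This comparison and the previous one share the WT columns. The members' median was -0.05, with 65 of 97 below 0. By complex the medians were -0.01 for I, -0.02 for II, -0.14 for III, -0.13 for IV and -0.16 for V, and all 17 genes of complex V and all 11 ubiquitous subunits of complex IV lay below 0, against 12 and 10 after quantile normalization and 0 as deposited. Cox6c differed by -0.35 with an interval of -0.65 to -0.05, Uqcrfs1 by -0.24 with -0.44 to -0.04, and Atp5a1 by -0.34 with -0.72 to 0.05. Column 1 of 5xFAD-LynKO was the lowest column of all in Atp5a1, Atp5b, Cox4i1 and Cox5b. It had 121 targets at more than 2 times the negative probe, where the other 5xFAD-LynKO columns had 344 to 1032. The columns of 5xFAD had 298 to 793 and those of WT 612 to 1670. With column 1 of 5xFAD-LynKO left out, 0 members were called and the members' median was 0.0009.

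The comparison of 5xFAD-LynKO with 5xFAD asked what loss of Lyn changed in amyloid-bearing brain. By limma 0 members were called and 0.0% of all targets in either direction, with 7 members at an unadjusted p under 0.05 and a smallest adjusted p of 0.225. The members' median was 0.04, with 0.15 for complex V, 0.10 for complex III, 0.05 for complex IV and -0.01 for complex I. In complex V, 16 of 17 genes lay above 0, and 13 of 17 after quantile normalization. Differences were 0.25 for Cox6c, with an interval of -0.06 to 0.57, 0.27 for Uqcrfs1, with 0.06 to 0.47, and 0.30 for Atp5j2, with 0.06 to 0.55. Their limma adjusted p were 0.567, 0.293 and 0.305, and the comparison shares the 5xFAD columns with the first. Cox6a2 and Cox7b2, both near the negative probe, were the members whose 5xFAD-LynKO columns all lay below 5xFAD, which held for 1.35% of targets. The Cox6a2 difference was -0.27 with a limma adjusted p of 0.225, and array weights gave 1 lower call among the members.

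Other genes of mitochondrial energy metabolism, taken from lists chosen with earlier results of these data known, were lower in 5xFAD where they passed, with 1 exception, on a background of 8.23% of all targets. Of 37 assembly factors outside the symbol rule, 4 were called lower and 0 higher against WT, the complex I factor Tmem126b at -0.28, the complex III factors Ttc19 and Uqcc2 at -0.36 each and the ATP synthase factor Tmem70 at -0.39. Of 20 carrier, porin and import genes, 6 were called lower and 0 higher. Among them, the ATP and ADP exchanger gene Slc25a5 differed by -0.56 (limma adjusted p = 0.0037) and the outer membrane import receptor gene Tomm20 by -0.55 (adjusted p = 0.00138). Of 16 citric acid cycle genes, 1 was called lower, the isocitrate dehydrogenase gene Idh3a at -0.53, and of 8 mitochondrial antioxidant genes 2, Gpx4 at -0.49 and the thioredoxin gene Txn2 at -0.39. Of 12 regulators of mitochondrial biogenesis, Yy1, Tfam, Tfb1m and Tfb2m were called lower, at -0.33, -0.34, -0.38 and -0.33. Their probes lay at 1.67, 1.18, 1.35 and 1.08 times the negative probe, and 1 of the 12 regulators was above background. Nrf1, which binds the core shown above, was called higher at 0.32, with a probe at 0.944 times the negative probe. In 5xFAD-LynKO against WT and against 5xFAD, 0 genes of these 5 lists were called.

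Marker genes of cell types were read beside the module. In 5xFAD, 8 of 14 microglial markers were called lower, 1 of 13 pan-neuronal, 1 of 10 astrocyte, 3 of 10 oligodendrocyte and 1 of 8 endothelial markers, and 0 were called higher. Of all targets 8.23% were called lower, and 15.1% of those above background, so the pan-neuronal, astrocyte and endothelial counts are near the background shares. The microglial markers averaged 0.09 to 0.17 log2 in 5xFAD-LynKO columns, 0.11 to 0.34 in 5xFAD and 0.40 to 1.42 in WT. Without WT columns 1 and 3, the highest of these, 4 members were called for 5xFAD against WT, 3 lower and 1 higher, against 13 with them. The share of all targets called without these 2 columns was not counted. Omission of single columns gave from 2 calls, without 5xFAD column 3, to 19, without 5xFAD column 4, again with no count over all targets. Fewer columns also weaken the test, and what made the number fall was not tested. In 5xFAD-LynKO 5 of the 14 were called lower against WT, while 0 members were. The part of cell make-up in the differences of the module was not tested.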

How the data were processed

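GeoMx probe signal was deposited for 16 columns, 5 of 5xFAD-LynKO, 5 of 5xFAD and 6 of WT. The series describes regions rather than animals, so the spread may be partly technical. The authors deposited 1 table of normalized signal per target. Each genotype had 1 common column median, and the normalization, software and probe filters are not stated in the labels or the file. Groups come from the column headings alone, since no column could be matched to 1 titled segment.

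In 19959 of 19963 rows the signal was a whole multiple of a column's step (tolerance 1e-06), which gave the implied counts. The smallest value was 9 to 66 steps and the normalization is unknown, so no count model was run. For the fit 1 was added to the signal, log2 was taken and each column's median of these log2 values was subtracted. limma 3.58.1 in R 4.3.3 was fitted to all 19960 targets and 3 genotypes together, with Benjamini-Hochberg adjustment over all targets and a threshold of 0.05. The script was tested on simulated data. WT columns 5 and 6, and 5xFAD columns 3 and 5, differed by little more than counting noise, at 1.16 and 1.18 times it, and were kept apart.

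Members and gene lists were chosen with earlier results of these data known. By rule, the text names up to 4 called members per complex, the strongest signal of each, all of complex II, the nuclear core of complex I, the core of complex III, the c ring, the alpha and beta subunits, and the isoform groups of complex IV. Ndufa3, Ndufb2, Ndufb11b, Uqcr11, Cox7c, Atp5h, Atp5j, Atp5o and genes outside the rule of membership were named after their values were seen. Promoter windows are from RefSeq. Scaling, pseudocount, background, covariates, weights, a replicate block and omission of columns were varied. Values of 1 member are not reported here.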

Additional observations from a re-analysis of the deposited data

Results flagged for a closer look

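In 156 sets of 5 or 6 columns of 1 genotype, each searched for a column far from the rest, 2 stood apart by Dixon's criterion, which chance meets in about 1 in 20. Atp5l in 5xFAD column 2 was 0.4455 log2, or 1.364 times the column median, where the other 4 columns lay at 0.2158 to 0.2534. Uqcrh in 5xFAD column 4 was 1.457 log2, or 2.756 times the column median, where the others lay at 1.005 to 1.122. Column 4 was also the highest 5xFAD column in the mean of all targets above background.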

How the results depend on the processing

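For 5xFAD against WT, 13 members were called, with a median difference of -0.086. The calls numbered 4 without WT columns 1 and 3, 21 with array weights, 3 with near-equal columns averaged, 5 with the negative probe subtracted, 8 with a pseudocount of 5, 8 after quantile normalization, and 6 or 3 when only targets above background were tested (5-column or mean rule). They were 0 with other targets as a covariate, chosen after seeing the data, and 92 as deposited, where the median of all targets itself shifts. The median was -0.483 with the negative probe subtracted, -0.225 and -0.237 among targets above background (all targets -0.303, -0.160 and -0.163), 0.0535 with that covariate, 0.00882 after quantile normalization and 0.786 as deposited. Omitting single columns gave 2 to 19 calls and medians of -0.111 to -0.0526. The share of all targets called was not counted for omitted columns, array weights, averaged columns, other pseudocounts or tests of targets above background.

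For 5xFAD-LynKO against WT, 0 were called except 97 as deposited. The median of -0.053 became -0.441 with the negative probe subtracted (all targets -0.331), 0.0284 with the added covariate, 0.0013 with the pan-neuronal covariate and 1.115 as deposited, and -0.0989 to 0.000903 on single omissions. For 5xFAD-LynKO against 5xFAD, 0 were called except 1 with array weights and 77 as deposited. The median of 0.036 became -0.0191 with the added covariate, -0.00971 after quantile normalization and 0.333 as deposited, and -0.0147 to 0.0835 on single omissions. The causes of these moves were not tested. In every comparison, that of 5xFAD against WT included, the sign of the median thus changed with the setting.

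Whether heading numbers pair the columns was not settled. Of 15 same-numbered pairs, 8 correlated above 0.1, over a range of -0.457 to 0.706, and differently numbered pairs were not taken as a reference. With the number as a replicate block, 17 members were called for 5xFAD against WT, 12 of them shared with the 13, and 0 in the other comparisons, with medians of -0.111, -0.063 and 0.036. The share of all targets called with this block was not counted. Signal near the negative probe limits 55 of the 97 members.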
